A study of Homo sapiens with 2 samples.

Results

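The innate nucleic acid sensing genes described here were 10 genes, CGAS, STING1, RIGI, IFIH1, MAVS, TLR3, IRF3, IRF7, IFNB1 and ISG15, out of 57736 genes listed in each expression table. They were chosen by name, with current symbols or the older MB21D1, TMEM173 and DDX58 matched to the Ensembl identifiers of the tables, and all 10 were found. RNA-Seq was done on poly(A)+ RNA of wild type HEK293T cells, an established line derived from human embryonic kidney that stably expresses SV40 large T antigen. Cultures were held for 20 min at 43 °C, recovered for 6 h at 37 °C, and 2 replicates were lysed separately. The times are those of the labels, and the article on the study describes a longer heat treatment. These 2 libraries form 1 group. Untreated cells were not analysed here, so the values are levels after heat shock and recovery and no change caused by heat shock was measured. Both libraries came from 1 cell line, and nothing in the labels says whether the replicates were cultured on separate days.

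Cells recognise foreign or misplaced nucleic acid with a small set of sensors. CGAS binds double-stranded DNA and makes cyclic GMP-AMP, which activates the adaptor STING1 on the endoplasmic reticulum. RIGI and IFIH1 (also called MDA5) are helicases that bind viral RNA in the cytosol and signal through MAVS on mitochondria, whereas TLR3 binds double-stranded RNA in endosomes. The routes converge on the kinase TBK1 and the transcription factors IRF3 and IRF7, which switch on IFNB1, the gene of interferon beta. Secreted interferon then induces many target genes, among them ISG15, a ubiquitin-like protein, and also RIGI, IFIH1 and IRF7.

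The promoters of the members are shown first, since the elements through which IRF factors and interferon act on these genes lie close to their start sites. The RefSeq promoter table (GRCh38.p14) held 6 of the members, ISG15, IFNB1, IFIH1, RIGI, TLR3 and MAVS, and each printed stretch matched GRCh37, the build of the files, exactly at the coordinates given. Sequences run 5′ to 3′ on the strand of the gene, up to the base before the start annotated in RefSeq (position -1). The sequence of TLR3 runs to position 20 past the start instead. For ISG15, RIGI, TLR3 and MAVS the RefSeq start lies inside the gene span given below, which comes from the GENCODE annotation. Capitals mark matches, on either strand, to the IRF element AANNGAAA or to AAANNGAAA, the core of the interferon-stimulated response element (ISRE), which contains the IRF element.
ISG15, chr1:948727-948876, plus strand, from -150: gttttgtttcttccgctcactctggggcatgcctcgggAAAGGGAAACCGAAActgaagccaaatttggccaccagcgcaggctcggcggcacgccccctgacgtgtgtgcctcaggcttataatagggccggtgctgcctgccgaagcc
IFNB1, chr9:21077942-21078091, minus strand, from -150: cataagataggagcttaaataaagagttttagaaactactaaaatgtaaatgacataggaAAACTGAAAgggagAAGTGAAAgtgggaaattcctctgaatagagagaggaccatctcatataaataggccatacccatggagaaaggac
IFIH1, chr2:163175195-163175354, minus strand, from -160: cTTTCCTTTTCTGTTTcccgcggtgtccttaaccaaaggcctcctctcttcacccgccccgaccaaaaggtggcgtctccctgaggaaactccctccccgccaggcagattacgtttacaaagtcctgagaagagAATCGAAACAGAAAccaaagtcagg
RIGI, chr9:32526195-32526444, minus strand, from -250: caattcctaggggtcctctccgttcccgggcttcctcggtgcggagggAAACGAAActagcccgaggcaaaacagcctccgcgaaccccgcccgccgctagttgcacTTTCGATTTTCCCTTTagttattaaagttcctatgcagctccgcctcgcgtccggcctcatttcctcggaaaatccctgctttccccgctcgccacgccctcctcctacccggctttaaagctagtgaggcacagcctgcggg
TLR3, chr4:186990180-186990329, plus strand, from -130: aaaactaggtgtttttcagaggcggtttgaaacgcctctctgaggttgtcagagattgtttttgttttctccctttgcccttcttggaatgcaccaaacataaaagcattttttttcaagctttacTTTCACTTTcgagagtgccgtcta
MAVS, chr20:3827331-3827480, plus strand, from -150: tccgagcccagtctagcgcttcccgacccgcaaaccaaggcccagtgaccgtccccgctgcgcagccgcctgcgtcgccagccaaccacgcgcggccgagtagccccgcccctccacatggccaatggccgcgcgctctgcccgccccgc

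In the whole windows (from -250 to 50), 5 of the 6 promoters held the ISRE core, and MAVS did not. Among all 35116 RefSeq promoters of that length, 10.5% held the ISRE core and 22.8% held the IRF element. ISG15 carried overlapping ISRE cores at -112 to -104 and -106 to -98. In IFNB1, an ISRE core at -90 to -82 was followed by an IRF element at -76 to -69 and by GGAAATTCC at -65 to -57, a match to GGNNNTTCC, which is part of the kappa B element bound by NF-kappa B. A match to GGNNNTTCC was present in 4 of the 6 windows and in 20.1% of all promoters. IFIH1 held an ISRE core at -20 to -12 and a pair of overlapping ones further upstream on the opposite strand, at -159 to -151 and -153 to -145. RIGI held overlapping ISRE cores on the opposite strand at -143 to -135 and -136 to -128, and the ISRE core of TLR3 spanned the start, from -4 to 5. The core of the heat shock element, GAANNTTC, was found in 0 of the 6 windows, against 6.77% of all promoters. A match describes the letters only. It does not show that a factor was bound, and 0 matches say nothing of other windows.

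The libraries held 22529828 expected counts in replicate 1 and 26890199 in replicate 2. An expected count is the number of reads assigned to a gene, with reads that map to several genes shared among them. Levels are given in TPM (transcripts relative to a fixed library total). The unit allows for transcript length, so that genes may be compared on it. A gene was called detected when its TPM was at least 1 in both libraries, and at the floor when it had 3 counts or fewer in each. Of the 10 members, 5 were detected (IRF3, MAVS, STING1, ISG15 and IRF7), beside 63.8% of 19391 protein-coding genes and 26.3% of all genes listed. CGAS and IFNB1 were at the floor, as were 22.6% of protein-coding genes. RIGI, IFIH1 and TLR3 lay between these limits. The members together took 95.2 TPM in replicate 1 and 92.5 in replicate 2, and IRF3 and MAVS supplied most of that sum in each. In such bulk libraries, RNA in few cells and little RNA in every cell cannot be told apart.

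**Figure D1:**
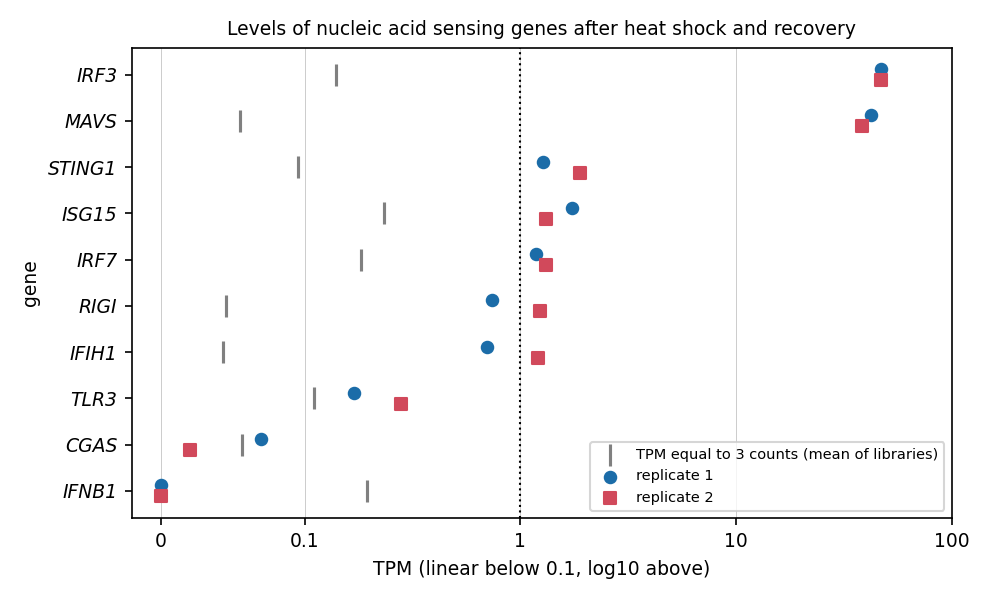
TPM of each member (vertical axis) in replicate 1 (circles) and replicate 2 (squares), on an axis that is linear below 0.1 and log10 above it. The dotted line marks a TPM of 1 and the grey bars the TPM that 3 counts would give, averaged over the libraries. IRF3 and MAVS stand above 38 TPM in both libraries, 5 members lie within a factor of 2 of the line, and IFNB1 is at 0.

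Among the sensors, none reached a TPM of 1 in both libraries. CGAS (ENSG00000164430, chr6:74123238-74162020, minus strand) had 3 counts in replicate 1 and 1 in replicate 2, or 0.07 and 0.02 TPM. The exact 95% Poisson intervals of these counts were 0.619 to 8.77 and 0.0253 to 5.57, so the 2 libraries could not be distinguished at this depth. A level of 1 TPM would have corresponded to 44.5 and 65.1 counts at the transcript lengths used for CGAS. DDX43, on the opposite strand, shares 180 exon bases with CGAS and had 0 counts in both libraries. Such intervals cover counting error only.

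RIGI (ENSG00000107201, chr9:32455300-32526206, minus strand) had 44 counts in replicate 1 and 92 in replicate 2, or 0.74 and 1.23 TPM. IFIH1 (ENSG00000115267, chr2:163123584-163175194, minus strand) was close to it, with 45 and 89 counts, or 0.70 and 1.21 TPM. Both helicases were thus above the limit in replicate 2 and below it in replicate 1, and their ranges overlapped. The bounds on TPM deposited with the tables were 0.528 to 1.04 and 0.942 to 1.55 for RIGI, and 0.570 to 1.17 and 1.03 to 1.74 for IFIH1. Of the 50-base sequences of RIGI transcripts, 0.561% occurred in another gene of the tables and 42.8% in another gene of the newer annotation. ENSG00000288684, a protein-coding gene on the same strand, shares 4471 of 10345 exon bases with RIGI in that annotation and its level was not analysed here, so RIGI counts may hold its reads. For IFIH1 the share was 0%. The remaining receptor of this family, DHX58 (LGP2), which lacks signalling domains, stood at 0.98 and 0.83 TPM.

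TLR3 (ENSG00000164342, chr4:186990065-187009227, plus strand) had 4 counts in replicate 1 and 9 in replicate 2, or 0.17 and 0.28 TPM. The exact Poisson intervals, 1.09 to 10.2 and 4.12 to 17.1 counts, overlapped. TLR3 was above the floor of 3 counts in both libraries but below the levels of RIGI and IFIH1, with no overlap of the ranges. It ranked at the 27.5th percentile of protein-coding genes by mean TPM, CGAS at the 20.0th, and RIGI and IFIH1 at the 35.0th and 34.8th.

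The adaptors differed from each other. MAVS (ENSG00000088888, chr20:3827446-3856770, plus strand) had 2108 counts in replicate 1 and 2283 in replicate 2, or 42.31 and 38.29 TPM (40.3 ± 2.84, SD, n = 2), at the 82.0th percentile of protein-coding genes. STING1 (ENSG00000184584, chr5:138855118-138862520, minus strand) had 42 and 57 counts, or 1.27 and 1.90 TPM. The level of MAVS was above that of STING1 in each library, and the ranges did not overlap. The margin by which STING1 passed the limit depended on the estimate: its deposited bounds, 1.81 to 3.54 and 2.25 to 4.05 TPM, lay above the point estimates in both libraries, and its mean of the deposited posterior mean TPM values was 2.88. The mean transcript length the authors' quantifier gave STING1 also differed between the libraries, 1863 bases in replicate 1 and 1490 in replicate 2, so its TPM differed more than its counts.

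Of the transcription factors, IRF3 (ENSG00000126456, chr19:50162826-50169132, minus strand) was the highest of the members, with 959 counts in replicate 1 and 1063 in replicate 2, or 47.05 and 46.95 TPM, at the 84.3rd percentile. The 2 libraries were nearly equal. BCL2L12, an apoptosis-related gene on the opposite strand, covers 734 of the 3794 exon bases of IRF3 and had 789 and 748 counts. No source used here states the strand setting of the deposited tables, so reads in the shared bases may have come from either gene, and the posterior SD of the IRF3 count was 8.03 and 8.77 reads. IRF7 (ENSG00000185507, chr11:612553-615983, minus strand), which amplifies the interferon response, had 20 and 21 counts, or 1.18 and 1.31 TPM. Its deposited bounds, 1.21 to 2.64 and 1.20 to 2.52, began just above the point estimate of replicate 1. IRF3 thus stood far above IRF7 in both libraries.

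At the end of the pathway, IFNB1 (ENSG00000171855, chr9:21077103-21077941, minus strand) had 0 counts in both libraries. The floor of 3 counts used for all members corresponds, for IFNB1, to 0.208 TPM in replicate 1 and 0.183 in replicate 2. A count of 0 does not exclude a level around this floor or below it. The two-sided exact 95% Poisson limit for a count of 0 is slightly higher, at 3.69 counts. ISG15 (ENSG00000187608, chr1:936518-949920, plus strand) had 21 counts in replicate 1 and 18 in replicate 2, or 1.74 and 1.31 TPM. Its deposited bounds reached from 1.07 to 2.52 in replicate 1 and from 0.763 to 1.95 in replicate 2, so its call as detected in replicate 2 rested on the point estimate. In the GENCODE annotation ISG15 has 867 exon bases, while its deposited length was 711. A processed pseudogene on the opposite strand, ENSG00000231702, overlaps 36 of the GENCODE exon bases and had 3.3 and 2.2 counts. The overlapping gene ENSG00000224969, a lncRNA with 0 exon bases in common, had 2 and 4.

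Ordered by mean TPM, the members ran IRF3, MAVS, STING1, ISG15, IRF7, RIGI, IFIH1, TLR3, CGAS and IFNB1. The ranges of STING1, ISG15, IRF7, RIGI and IFIH1 overlapped from neighbour to neighbour, and neighbours among these 5 genes cannot be ranked from 2 libraries. The range of IRF7 met those of the other 4. STING1 and ISG15 lay above RIGI and IFIH1 with no overlap of the ranges. The deposited bounds of ISG15, however, overlapped those of IFIH1 in both libraries and those of RIGI in replicate 2. The 2 values of the other neighbours in the order did not overlap. In both libraries, however, the deposited bounds of TLR3 overlapped those of CGAS, and the bounds of CGAS overlapped those of IFNB1. The order of these low genes is therefore not resolved. The bounds of IFIH1 and TLR3 overlapped in replicate 1 only. By counts alone, without scaling to length, RIGI and IFIH1 with their long transcripts came directly after MAVS and IRF3, and MAVS came before IRF3.

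The 2 libraries were next compared gene by gene, which tests whether they differ beyond counting noise and says nothing of a condition. By an exact two-sided binomial test on rounded counts, with Benjamini-Hochberg adjustment over 19714 genes, 42.2% of all genes tested differed and 22.1% were higher in replicate 2. Of the members, 8 could be tested and 3 differed. RIGI was higher in replicate 2 by a log2 ratio of 0.77 (95% interval 0.25 to 1.33, exact binomial test, adjusted p = 0.00939). IFIH1 was higher there by 0.69 (0.17 to 1.25, exact binomial test, adjusted p = 0.019). MAVS was lower in replicate 2 by a small margin, with a log2 ratio of -0.17 (-0.25 to -0.08, exact binomial test, adjusted p = 0.000496). For IRF3 the log2 ratio was -0.13 and for STING1 0.15, with adjusted p = 0.0866 and 0.751 by the same exact test. The intervals of TLR3 (-0.95 to 3.04), ISG15 (-1.50 to 0.47) and IRF7 (-1.17 to 0.75) were wide, and differences of up to those sizes could not be resolved. The median log2 ratio was 0.01 over the tested members and 0.02 over all tested genes.

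GC content moved with these ratios. Of the genes with 100 or more counts over both libraries, the 1644 with a GC content up to 41% had a median log2 ratio of 0.60, and 95.6% of them were higher in replicate 2. The median was -0.02 for 9792 genes between 41% and 60%, and -0.24 for 2103 genes above 60%. RIGI (40.0% GC), IFIH1 (40.5%) and TLR3 (39.1%) lie in the first class, MAVS (52.0%) and STING1 (57.7%) in the second, and IRF3 (61.0%), ISG15 (63.8%) and IRF7 (67.2%) in the third. At the GC content of RIGI the trend over all genes was 0.53, and with the trend removed its log2 ratio was 0.24 (exact binomial test, adjusted p = 0.581). For IFIH1 the trend was 0.47, and the log2 ratio without it was 0.23 (exact binomial test, adjusted p = 0.628). With the trend removed, 0 of the 8 members differed, and 0 had an unadjusted p under 0.05 in that exact binomial test.

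**Figure D2:**
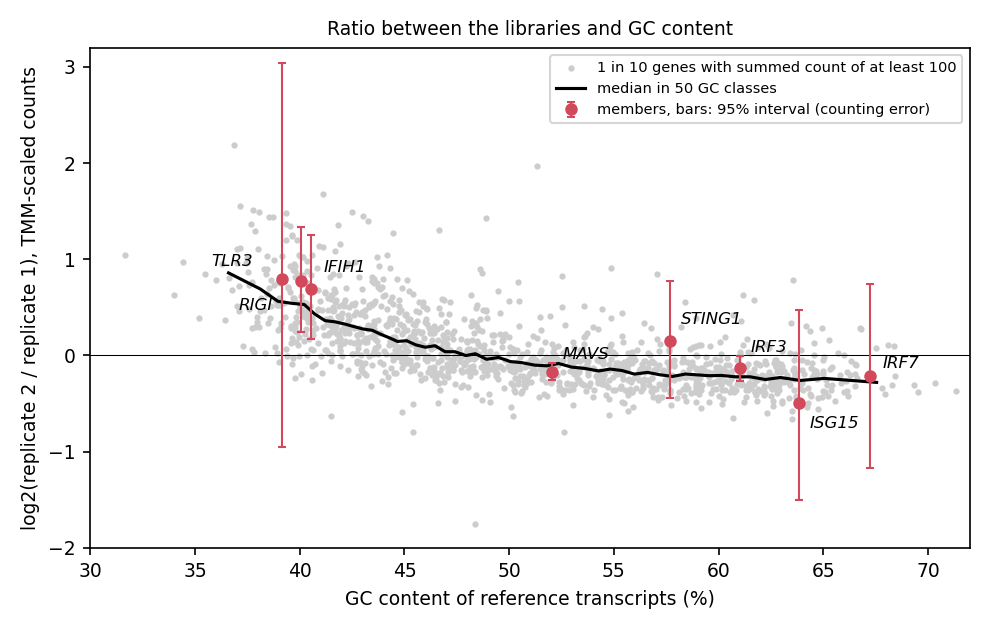
Log2 ratio of replicate 2 to replicate 1 (TMM-scaled counts, vertical axis) against the GC content of reference transcripts in percent (horizontal axis). Red points are the 8 tested members with 95% intervals that cover counting error only, grey points are 1 in 10 of the genes with 100 or more counts, and the black line is the median in 50 GC classes. RIGI and IFIH1 lie near 40% GC, where the black line is itself near 0.5.

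The rest of the pathway was read from lists of 158 named genes other than the members, of which 155 were matched. Of these, 96 (61.9%) were detected, beside the 63.8% of protein-coding genes given above, 41 were at the floor, and the median level was 6.43 TPM. Between the libraries, 53 of 113 tested genes (46.9%) differed, 22 higher in replicate 2 and 31 higher in replicate 1, beside 42.2% of all genes.

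In DNA sensing, 10 of 16 genes were detected. The highest were the subunits of the DNA-dependent protein kinase, a DNA repair enzyme that also binds DNA ends as a sensor: XRCC6 (Ku70) at 435.74 and 377.14 TPM, XRCC5 (Ku80) at 308.69 and 305.58, and PRKDC at 187.66 and 198.61. The PYHIN genes, which encode DNA receptors common in blood cells, were at or near 0. AIM2, PYHIN1 and MNDA had 0 counts in both libraries, and IFI16 had 2 and 1. CGAS therefore stood with the PYHIN genes at the floor, while STING1 was the lowest of the 10 detected genes.

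Among genes of RIG-I-like receptor signalling, 17 of 20 were detected, and the 3 that were not were the receptors RIGI, IFIH1 and DHX58 themselves. The phosphatase subunits PPP1CC (178.09 and 195.30 TPM) and PPP1CA (190.67 and 146.89), which remove inhibitory phosphates from RIGI and IFIH1, were the highest. TRIM25, a ubiquitin ligase that activates RIGI, stood at 70.21 and 70.03 TPM. MAVS had the fifth highest mean of this list.

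For endosomal TLRs, 8 of 13 genes were detected. The receptors TLR3, TLR7, TLR8 and TLR9 were all below the limit, with 0 counts for TLR8, 4 and 1 for TLR7, and 5.17 and 5.96 for TLR9. The highest of the list were the chaperone HSP90B1 at 268.86 and 379.47 TPM, the kinase IRAK1 at 157.97 and 130.87, and the chaperone CNPY3 at 41 and 37.78, while the related kinases IRAK4 (7.46 and 8.69) and IRAK2 (4.15 and 4.07) were lower. TICAM1 (TRIF), the adaptor of TLR3, stood at 3.71 and 2.55 TPM.

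All 11 matched kinases and adaptors of IRF3 activation were detected, with a median of 23.7 TPM. TAB2 (61.30 and 79.77 TPM), TAB1 (46.14 and 38.74) and OPTN (39.25 and 42.78) were the highest. TBK1, the kinase that phosphorylates IRF3, stood at 7.39 TPM in replicate 1 and 18.15 in replicate 2. Its mean was the lowest of the list, but its range contained that of TBKBP1 (14.53 and 14.94), which was lower in replicate 2. The log2 ratio of TBK1, 1.18 (exact binomial test, adjusted p = 2.44e-44), was larger than that of any member. With the GC trend removed it was 0.53 (exact binomial test, adjusted p = 6.03e-09), so TBK1 still differed between the libraries by that test. The other partners of IRF3 at the IFNB1 enhancer were also detected, 7 of 7, led by HMGA1 at 907.18 and 802.19 TPM, RELA at 181.67 and 164.08, and JUN at 121.20 and 125.79.

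Within the IRF family, 6 of 9 genes were detected and 0 of 8 tested genes differed between the libraries by the exact binomial test. After IRF3 the highest were IRF8 (7.98 and 8.23 TPM), IRF2 (6.87 and 5.98) and IRF1 (5.46 and 6.99). IRF7 was the lowest of the 6 detected members of the family, and IRF5 had 1 count in each library.

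**Figure D3:**
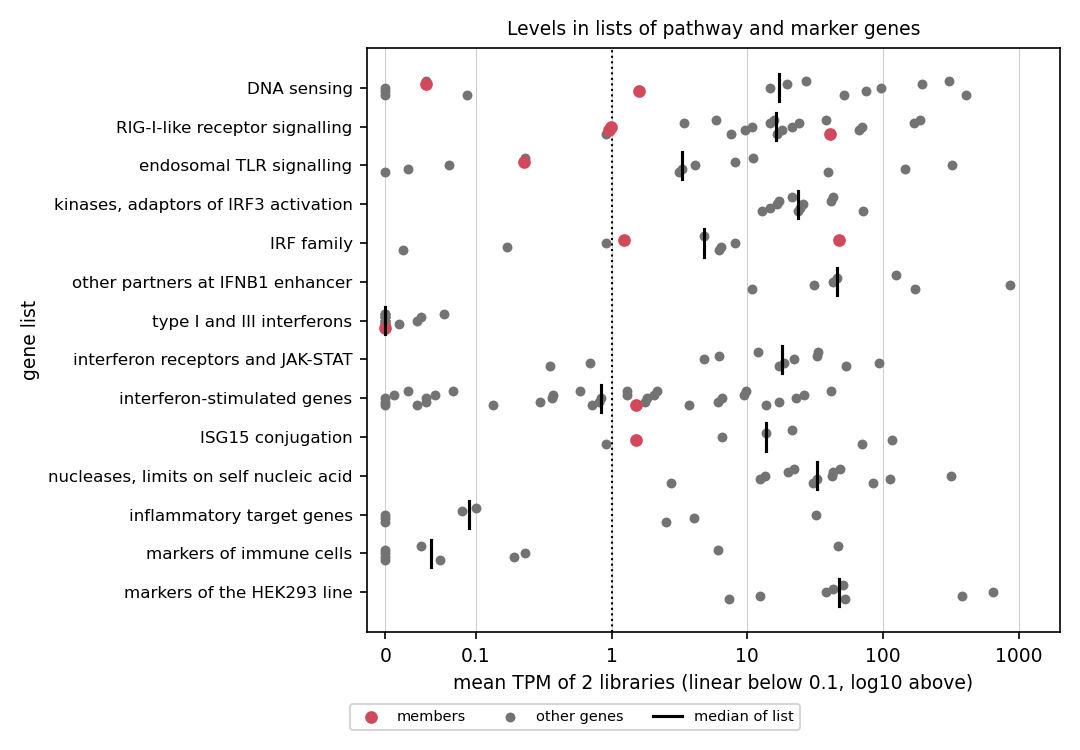
Mean TPM of the 2 libraries (horizontal axis, linear below 0.1 and log10 above it) for each gene of the pathway and marker lists (vertical axis), with members in red, other genes in grey and the median of each list as a black bar. All interferon genes lie below 0.1 TPM, whereas all kinases and adaptors of IRF3 activation lie above 10 TPM, and the sensors CGAS, RIGI, IFIH1 and TLR3 lie below the medians of their lists.

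Interferon genes were at the floor throughout. Of 20 type I and III interferon genes, IFNB1 included, 16 had 0 counts in both libraries, among them all 13 interferon alpha genes in the list. IFNW1 had 0 and 1 counts, IFNE 0 and 2, IFNL1 1 and 1, and IFNL2 1 and 0. In contrast, 10 of 12 genes for interferon receptors and JAK-STAT signalling were detected. TYK2 stood at 98.79 and 88.77 TPM and PIAS1 at 44.15 and 62.05, while the feedback inhibitors SOCS1 and SOCS3 were not detected.

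Of 35 interferon-stimulated genes, ISG15 included, 16 were detected, 10 were at the floor and the median was 0.835 TPM. IFITM2 (45.65 and 36.45 TPM), EIF2AK2 (PKR; 22.15 and 29.75) and IFITM3 (22.46 and 23.16) were the highest. The IFITM genes resemble one another, and the sequence they share was not measured here. Posterior SDs reached 14.9 reads in replicate 1, for IFITM2 with 465.69 counts, so the split among them carries some uncertainty. OAS1, OAS2 and RSAD2, antiviral genes with strong induction by interferon, had 0 counts in both libraries, MX1 had 1 and 2, and IFIT2 had 2 and 3. ISG15 was next to the lowest of the 16 detected genes of this list, and DTX3L was the lowest. RefSeq promoters were found for 28 of the 35 genes, and 22 of these (78.6%) held the ISRE core, beside 10.5% of all promoters. Of the 22 genes with the core 12 were detected, and of the 6 without it 2 were, so a promoter with the element stood beside both detected and undetected genes.

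**Figure D4:**
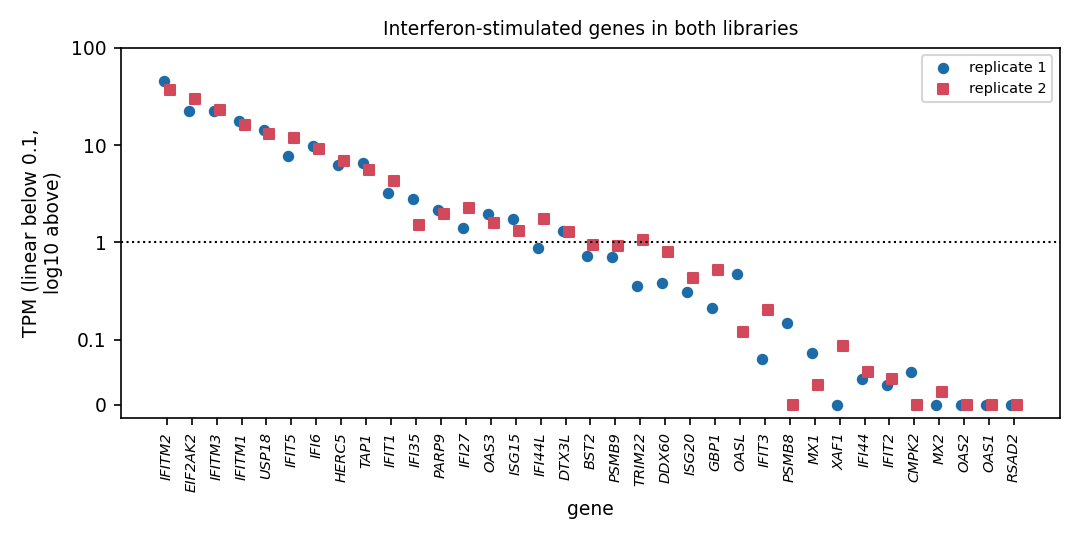
TPM of 35 interferon-stimulated genes (horizontal axis, ordered by mean TPM) in replicate 1 (circles) and replicate 2 (squares), on an axis that is linear below 0.1 and log10 above it, with a dotted line at a TPM of 1. Levels run from 45.65 TPM for IFITM2 in replicate 1 down to 0 for OAS1, OAS2 and RSAD2, and ISG15 lies just above the line in both libraries.

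The enzymes that attach and remove ISG15 were higher than ISG15 itself, with one exception. Of the 7 genes of ISG15 conjugation, 6 were detected. ARIH1 stood at 104.58 and 127.23 TPM, the conjugating enzyme UBE2L6 at 23.46 and 18.95, and the protease USP18 at 14.39 and 13.13. UBA7, the activating enzyme that starts the cascade, was not detected, at 0.62 and 1.21 TPM.

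All 13 nucleases and other genes that limit sensing of the cell's own nucleic acid were detected, with a median of 32.5 TPM. BANF1, which shields DNA from CGAS, stood at 345.46 and 290.55 TPM, the RNA editing enzyme ADAR at 111.35 and 113.07, and RNASEH2A at 92.34 and 77.20. The lowest was TREX1, the cytosolic DNA exonuclease, at 2.55 and 2.92 TPM. Of the inflammatory target genes, 3 of 8 matched genes were detected. NFKBIA stood at 33.02 and 30.79 TPM, TNFAIP3 at 3.94 and 4.10, and ICAM1 at 2.55 and 2.51, while CXCL10, CXCL11 and TNF had 0 counts in both libraries.

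The identity of the cells was read from marker lists. All 8 matched markers of the HEK293 line were detected, from PAX2 (mean 7.35 TPM) to VIM at 683.67 and 610.70 TPM, UCHL1 at 397.06 and 367.37, and KRT18 at 58.13 and 47.13. Of 10 markers of immune cells, which commonly express the sensors, 6 were at the floor, while NCAM1, which neural cells also express, stood at 45.89 and 47.30 TPM. PTPRC, CD3E, MS4A1 and CLEC4C, which define leukocytes, T cells, B cells and plasmacytoid dendritic cells, had 0 counts in both libraries.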

How the data were processed

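Poly(A)+ RNA of 2 replicates of 1 heat shock group was sequenced with 50 bp reads. The submitters' processing notes name Trimmomatic 0.36, STAR 2.6.1c, RSEM 1.3.1 and GRCh37, whereas the study's methods name featureCounts on exons of an Ensembl release 87 gene list, with no strand option. The columns of the tables are those RSEM writes. Genomic DNA is entered as the molecule in the labels, although their protocol describes RNA. Neither the strand setting of RSEM nor the level of its credibility bounds is stated there. The authors deposited, per gene, expected counts (multi-mapped reads shared among genes), TPM values (corrected for transcript length, with 1 fixed total per library), FPKM values, posterior SDs, posterior means, credibility bounds and transcript lengths, and a pooled table of both libraries.

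Names, positions and GC content came from GENCODE v44 lifted to GRCh37, which matched 96.1% of identifiers. Promoters came from RefSeq and were searched on both strands. Symbols of the lists were matched to the annotation, and IKBKE, IKBKG, CCL5, NEFL and LHX1 were not matched. Counts were rounded, scaled by edgeR 4.0.16 TMM factors and compared by an exact two-sided binomial test (scipy 1.17.1) conditional on the summed count, with Benjamini-Hochberg adjustment over all genes with 10 or more counts in sum. No edgeR quasi-likelihood fit was possible with 1 library against 1. Log2 ratios used a pseudocount of 0.5, and the GC trend was the median in 50 classes. Intervals are 95% and cover counting error. The test was checked on simulated counts with counting noise only, which is the noise it assumes. That check could not show how the test behaves when libraries vary beyond counting noise. Alternatives covered thresholds, units, scaling (DESeq2 1.42.0 size factors), count minimums, dispersion, GC and leaving out each replicate.

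The members and lists were chosen with earlier results of these data known. All members are named. Of each other list, the 3 genes of highest mean TPM and genes with 0 counts in both libraries (up to 5) are named, as are overlapping genes with counts. Further genes named from the lists, such as TBK1, TBKBP1, IRAK2, IRAK4, DHX58, TICAM1, TREX1, UBA7, IRF5, MX1, IFIT2, IFIT1, OAS3 and IFI6, were singled out after their values were seen. Some genes that this rule names are not reported here.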

Additional observations from a re-analysis of the deposited data

How the results depend on the processing

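With a TPM limit of 0.1 or 5 in place of 1, 8 or 2 of the 10 members were detected in place of 5. FPKM or the lower credibility bound gave 4, CPM 5 (RIGI and IFIH1 in, ISG15 and IRF7 out), a count of at least 10 gave 7, and the authors' pooled values gave 6. Without replicate 1 the count was 7, with RIGI and IFIH1 added, and without replicate 2 it was 5. CGAS and IFNB1 were detected under none of these. Between the libraries, 3 members differed under library totals, DESeq2 size factors and count minimums of 1 or 100. With the GC trend removed, 0 differed, and 0 by the edgeR exact test, at a biological coefficient of variation set to 0.1 or to the estimated 0.202. Members with an unadjusted p under 0.05 then numbered 0, 2 and 0. Over all genes these 3 settings called 5491, 1516 and 158 genes in place of 8314. The value of 0.202 was estimated from the same 2 libraries taken as 1 group. The difference under test was thus itself counted as variation, so that setting tended to call few genes whatever the members did. The summed level of the members was 99.9 TPM with posterior means and 116 with nuclear copies of mitochondrial genes left out, in place of 93.9. No paired analysis was possible because the libraries form 1 group. Depth limits CGAS, TLR3 and IFNB1, whose counts were 9 or fewer in each library.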
